A study of Mus musculus with 12 samples.

Results

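The 10 genes described here, Trim12a, Trim12c, Trim14, Trim21, Trim25, Trim26, Trim30a, Trim30d, Trim34a and Trim56, belong to the tripartite motif (TRIM) family and have been linked to antiviral defence. They were chosen by gene symbol from a table of 40481 genes, and each symbol matched 1 gene ID. RNA was sequenced in 12 libraries of mouse hematopoietic stem cells (HSCs), 3 in each of 4 groups. The groups were wild type (WT) cells and cells carrying ETV6-RUNX1 (labelled iE/R), each taken either from fetal liver (E14.5) or from the marrow of mice aged 8 weeks. ETV6-RUNX1 is the fusion of a pair of transcription factor genes found in childhood B-cell leukemia. All cells, WT included, were expanded in culture for 3 days under doxycycline at 1 µg/mL, so the drug was common to all groups, and source and age changed together. The number of animals behind a library and their sex are not given in the sources used here. The p-values below therefore measure the spread between these libraries.

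TRIM proteins carry a RING domain, B-box domains and a coiled coil, and most are E3 ubiquitin ligases, the enzymes that choose which protein receives ubiquitin. Many TRIM genes are induced by interferon through transcription factors that bind the interferon-stimulated response element (ISRE). Their products tune the sensors of viral RNA and DNA, or bind viral proteins and capsids directly. Among the regulators of sensing, Trim25 ubiquitinates the RNA sensor RIG-I, Trim56 acts on the STING and TLR3 pathways, Trim26 acts on the transcription factor IRF3, Trim30a restrains NF-kB signalling, and Trim14, which lacks the RING domain, is an adaptor at the mitochondrial protein MAVS. Among those that act on viruses more directly, Trim12a and Trim12c are relatives of primate TRIM5, which binds retroviral capsids, Trim34a is their neighbour and relative, Trim30d restricts a flavivirus, and Trim21 is a cytosolic antibody receptor.

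The stretches of promoter that hold an ISRE core upstream of the start are shown because the promoters of most members held such a core. The sequences are RefSeq's, on GRCm38.p6, and 10 promoters (250 bases before to 50 after the start) of 9 members were matched, Trim14 being the exception. The ISRE core was searched as GAAA, any 2 bases, and GAAA again, on both strands, counting overlapping matches. It was present in 8 of the 10 promoters, those of 7 of the 9 members, against 1131 of 32851 promoters in the whole table (3.44%). The promoters of Trim25 and Trim56 held no match in this window. The interferon gamma element GAS, searched as TTCNNNGAA, was present in none of the 10 promoters, against 8.30% of the whole table. A match is a run of letters and was not tested for binding. Capitals mark the ISRE core, which lies on the opposite strand in all 4 stretches, and each is written 5′ to 3′ on the strand of its gene.
Trim12c, chr7:104353350-104353403, minus strand: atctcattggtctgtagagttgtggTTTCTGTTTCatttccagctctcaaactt
Trim30a, chr7:104465195-104465254, minus strand: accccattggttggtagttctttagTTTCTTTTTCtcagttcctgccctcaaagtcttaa
Trim30d, chr7:104507856-104507915, minus strand: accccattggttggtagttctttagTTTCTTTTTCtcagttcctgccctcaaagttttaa
Trim26, chr17:36836961-36837026, plus strand: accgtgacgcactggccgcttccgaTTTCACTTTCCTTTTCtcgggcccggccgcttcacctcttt

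The stretches of Trim30a and Trim30d were identical in 59 of 60 bases. Their cores began 36 and 41 bases before the start, and that of Trim12c began 29 bases before it. In Trim26 a pair of overlapping cores lay farther upstream, beginning 160 and 154 bases before the start. In Trim21, Trim34a and Trim12a the matches lay after the start, beginning at base 14, 11 and 11, as did that of a second Trim30a promoter, at base 3, and Trim21 held a second, overlapping match that began at base 20.

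The labels and the cells were checked first. Library totals were 32.3 to 64.5 M reads. A floor of 3 reads, under which a gene cannot be told from one at 0, equalled 0.0465 to 0.0928 CPM, the unit of the table (a gene's reads scaled to the library total). The member with the fewest reads in any library was Trim21, with 60. In fetal liver Runx1 had a mean of 121 ± 12.98 CPM in WT and 227 ± 15.02 CPM with the fusion (SD, n = 3), and in bone marrow the means were 96.3 ± 9.17 and 170 ± 25.8 CPM (limma adjusted p = 0.000153 and 0.00178). Etv6 passed the test in fetal liver (limma adjusted p = 0.0146) and missed it in bone marrow (0.0633), with a difference between these effects of 0.09 (adjusted p = 0.845). All 10 HSC markers examined, among them Kit, Procr and Hlf, were at 1 CPM or more in every library. Xist was 51.7 to 89.3 CPM in fetal liver and 0.175 to 1.27 CPM in bone marrow, so sex and source cannot be told apart.

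In WT cells the members were expressed at low to moderate levels. Per kilobase of exon, Trim30a was the highest of the 10 in every group, at 11.8 ± 0.604 CPM per kb in WT fetal liver and 22.4 ± 1.53 in WT bone marrow (SD, n = 3), with no overlap with the next gene. Trim25 was next in WT fetal liver at 6.89 ± 0.760 CPM per kb and did not overlap Trim34a, at 3.99 ± 0.379. Trim34a and Trim12c (3.57 ± 0.246) overlapped, as did Trim12c and Trim12a (3.47 ± 0.199). Trim26 (2.65 ± 0.369), Trim56 (2.13 ± 0.473) and Trim30d (1.57 ± 0.358) followed, with overlap between neighbours. Trim14 (0.428 ± 0.146) and Trim21 (0.378 ± 0.0252) were last and overlapped. In WT bone marrow, ranks 2 to 5 were Trim12a (8.38 ± 1.27 CPM per kb), Trim34a (8.36 ± 1.96), Trim25 (8.23 ± 2.01) and Trim12c (7.67 ± 1.57), which were not separated by their libraries. Trim21 and Trim14 were again last, at 0.525 ± 0.0830 and 0.523 ± 0.0655 CPM per kb.

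**Figure D1:**
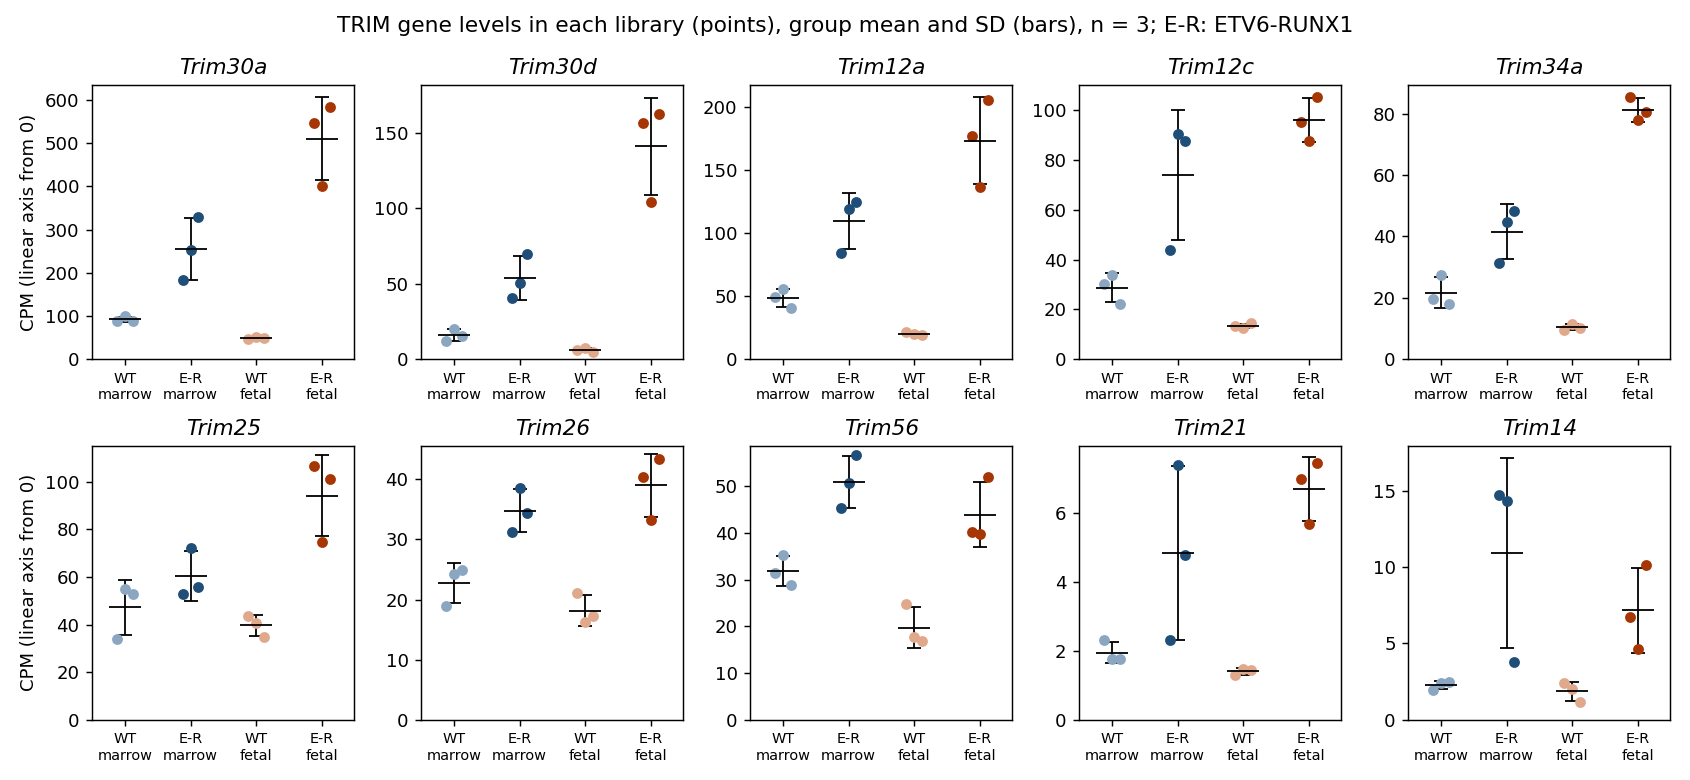
Level of each of the 10 TRIM genes in every library, on linear axes of CPM that start at 0 and differ between panels. Points are single libraries, 3 per group, coloured by group, and bars are the group mean and SD. For Trim30a the ETV6-RUNX1 fetal liver libraries sit between 402 and 584 CPM. They lie above the ETV6-RUNX1 bone marrow libraries (184 to 329 CPM) and far above both WT groups.

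In fetal liver all 10 members rose in ETV6-RUNX1 cells. The summed CPM of the 10 genes was 179 ± 10.9 in WT and 1194 ± 202 in ETV6-RUNX1 libraries (SD, n = 3). The rises ran from 1.06 (Trim26) to 4.35 (Trim30d) on the log2(CPM + 1) scale, with a median of 2.22, against 0.08 for all 14271 genes tested. A gene is said to have risen or fallen where its limma adjusted p was under 0.05. Of all genes tested, 24.8% rose and 43.1% changed in either direction, and 32.3% had all ETV6-RUNX1 libraries above all WT libraries, as all 10 members did. In bulk RNA, more cells of a kind and more RNA per cell cannot be told apart.

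The regulators of sensing were led by Trim30a, the brake on NF-kB signalling. It was 46.3, 51.2 and 48.0 CPM in the WT fetal liver libraries and 547, 402 and 584 CPM in the ETV6-RUNX1 ones, a ratio of means of 10.5 (log2 change 3.35 ± 0.19 SE, limma adjusted p = 1.32e-08). The WT libraries lay close together and the lowest ETV6-RUNX1 library, replicate 2, was still far above them.

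Trim25, the ligase of RIG-I, was 43.6, 40.5 and 35.0 CPM in WT and 107, 74.6 and 101 CPM in ETV6-RUNX1 fetal liver (log2 fold change 1.21 ± 0.20 SE, limma adjusted p = 0.00027). Its ratio of 2.37 was among the 3 smallest, with Trim56 (2.23) and Trim26 (2.15). Trim56 was 24.8, 17.7 and 16.8 CPM in WT and 40.2, 39.7 and 51.9 CPM in ETV6-RUNX1 (1.12 ± 0.17 SE, limma adjusted p = 0.000169). Trim26 was 21.0, 16.2 and 17.3 CPM against 40.4, 33.3 and 43.3 CPM (1.06 ± 0.17 SE, limma adjusted p = 0.0002). For all 3 genes the groups were separate.

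Trim14, the MAVS adaptor, was low and uneven, at 2.40, 2.01 and 1.16 CPM in WT and 6.72, 4.65 and 10.1 CPM in ETV6-RUNX1 fetal liver (log2 fold change 1.49 ± 0.39 SE, limma adjusted p = 0.00686). With the processed pseudogene share of the reads as a covariate, an alternative added after the data were seen, its adjusted p was 0.0506. That share was 1.23% to 2.55% over the 12 libraries. Trim14 is uncertain for another reason: 38.0% of its exon bases lie opposite other genes, Nans among them, and whether strand was used in counting is not given in the sources used here. Nans, a sialic acid synthesis gene, moved the other way in fetal liver, from 79.7, 82.3 and 99.1 CPM in WT to 58.0, 59.3 and 60.6 CPM in ETV6-RUNX1 (limma adjusted p = 0.00414).

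Among the members that act on viruses more directly, Trim30d had the largest rise of the 10. It was 5.84, 7.28 and 4.59 CPM in WT and 156, 104 and 163 CPM in ETV6-RUNX1 fetal liver, a ratio of 23.9 (log2 fold change 4.35 ± 0.24 SE, 95% confidence interval 3.84 to 4.87, limma adjusted p = 1.24e-08). From rank 8 of the 10 in WT fetal liver it stood at rank 2 in ETV6-RUNX1, at 37.5 ± 8.56 CPM per kb (SD, n = 3), although there its libraries overlapped those of Trim34a, the next gene.

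The TRIM5 relatives and Trim34a had log2 rises between 2.76 and 3.03. Trim12a was 21.3, 19.8 and 19.1 CPM in WT and 177, 137 and 206 CPM in ETV6-RUNX1 fetal liver (log2 fold change 3.03 ± 0.18 SE, limma adjusted p = 2.48e-08). Trim12c was 13.2, 12.5 and 14.3 CPM against 95.3, 87.7 and 106 CPM (2.76 ± 0.24 SE, limma adjusted p = 6.94e-07). Trim34a was 9.58, 11.4 and 9.99 CPM against 85.6, 77.8 and 80.6 CPM (2.86 ± 0.19 SE, limma adjusted p = 5.42e-08). In each of these genes the lowest ETV6-RUNX1 library was several times the highest WT library. Trim34a shares 39.0% of its 100-base words with Trim34b and the antisense gene Gm47248, so its value is uncertain to the extent that such reads were split, and for Trim12c (8.05%, mostly with Trim5), Trim30d (4.57%, with Trim30a), Trim30a (4.41%, with Trim30d) and Trim12a (3.29%) that share was smaller.

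Trim21, the antibody receptor, was scarce in WT fetal liver, at 1.30, 1.47 and 1.44 CPM, and 6.996, 5.67 and 7.47 CPM in ETV6-RUNX1 (log2 change 1.68 ± 0.27 SE, limma adjusted p = 0.000225). Its ratio of means was 4.78, larger than the fitted change on the log2(CPM + 1) scale, which understates the change of low genes. ETV6-RUNX1 fetal liver replicate 2 was the lowest of its group for all 10 members, and replicate 3 was the highest for 8 of them.

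In bone marrow 9 of the 10 members rose in ETV6-RUNX1 cells, and all by less than 2 on the log2 scale. The summed CPM was 313 ± 36.4 in WT and 695 ± 148 in ETV6-RUNX1 libraries (SD, n = 3). The median change of the 10 genes was 1.03, against 0.13 for all genes tested. Of all genes, 14.4% rose, 19.4% changed in either direction, and 23.6% had all ETV6-RUNX1 libraries above all WT libraries, as 9 members did. With median-of-ratios scaling the median of all genes moved from 0.13 to 0.01, and 6 of the 10 members rose. The count was also 6 with quantile normalization and when replicate 2 of ETV6-RUNX1 bone marrow was left out.

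Trim30a was 89.2, 99.1 and 87.4 CPM in WT and 184, 252 and 329 CPM in ETV6-RUNX1 bone marrow (log2 fold change 1.42 ± 0.19 SE, limma adjusted p = 0.000341). The ETV6-RUNX1 libraries were spread over a wide range, all of it above WT. Trim14 had the largest ratio in this source, 4.82, but rested on libraries that did not lie together: 1.94, 2.40 and 2.47 CPM in WT against 14.7, 14.3 and 3.78 CPM in ETV6-RUNX1 (1.68 ± 0.39 SE, limma adjusted p = 0.0092). Nans, which overlaps it, did not pass the test in this source (log2 fold change -0.14, limma adjusted p = 0.480).

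Trim56 was 31.4, 35.4 and 28.9 CPM in WT and 45.4, 50.7 and 56.6 CPM in ETV6-RUNX1 bone marrow (0.66 ± 0.17 SE, limma adjusted p = 0.0187). Trim26 was 18.9, 24.3 and 24.9 CPM against 31.3, 38.5 and 34.5 CPM (0.60 ± 0.17 SE, limma adjusted p = 0.0241). Each was called in 17 of 23 alternative analyses, so both rises are close to the threshold. Trim25 was 34.1, 55.1 and 52.9 CPM in WT and 52.6, 72.3 and 55.9 CPM in ETV6-RUNX1. Its groups overlapped and it did not pass the test (0.36 ± 0.20 SE, 95% confidence interval -0.07 to 0.79, limma adjusted p = 0.221).

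Trim30d again had the largest fitted change, from 12.2, 19.9 and 15.1 CPM in WT to 40.8, 50.7 and 69.8 CPM in ETV6-RUNX1 bone marrow (1.70 ± 0.24 SE, limma adjusted p = 0.000539). Trim12a was 49.0, 55.4 and 40.8 CPM in WT and 84.1, 119 and 125 CPM in ETV6-RUNX1 (1.15 ± 0.18 SE, limma adjusted p = 0.00118). Trim12c was 30.2, 33.6 and 22.2 CPM against 43.9, 90.4 and 87.8 CPM (1.29 ± 0.24 SE, limma adjusted p = 0.0027). In both genes ETV6-RUNX1 replicate 1 was closest to WT.

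Trim34a was 19.5, 27.5 and 17.99 CPM in WT and 31.3, 44.7 and 48.4 CPM in ETV6-RUNX1 bone marrow (0.91 ± 0.19 SE, limma adjusted p = 0.00557). Trim21 was 2.30, 1.77 and 1.77 CPM in WT and 2.32, 7.39 and 4.80 CPM in ETV6-RUNX1 (0.89 ± 0.27 SE, limma adjusted p = 0.033). Replicate 1 of ETV6-RUNX1 lay just above the highest WT library for Trim21, whose call was kept in 13 of 22 alternatives. That replicate was the lowest of its group for 9 of the 10 members, Trim14 being the exception.

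**Figure D2:**
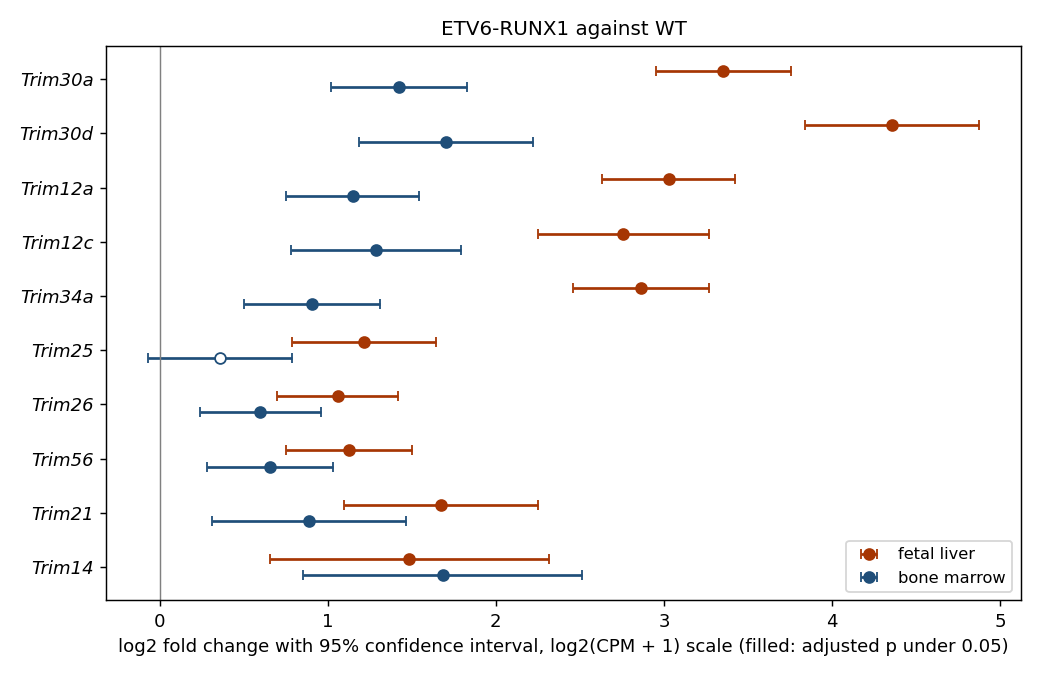
Log2 fold change (log2(CPM + 1) scale) of ETV6-RUNX1 against WT for the 10 members in fetal liver and in bone marrow. Points are limma estimates and bars are their 95% confidence intervals. Trim30d lies highest in fetal liver at 4.35, and the interval of Trim25 in bone marrow, -0.07 to 0.79, includes 0.

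The size of the ETV6-RUNX1 effect differed between the sources for 5 of the 10 members, all of them in the chromosome 7 cluster described below. The test was the interaction, the effect in fetal liver minus that in bone marrow. It is said to be called where its limma adjusted p was under 0.05. Of all genes tested, the interaction was called and positive for 5.56% and called with either sign for 9.19%. The differences were 2.65 ± 0.34 (SE, log2) for Trim30d, 1.96 ± 0.27 for Trim34a, 1.93 ± 0.27 for Trim30a, 1.88 ± 0.26 for Trim12a and 1.47 ± 0.33 for Trim12c. Their limma adjusted p-values were 0.000335, 0.000532, 0.000565, 0.000569 and 0.0148. For Trim12c the difference was also 1.47 when no filter on low values was used (adjusted p = 0.0613), and it was 1.65 with the pseudogene share as a covariate (adjusted p = 0.0636).

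For the other 5 members the interaction did not pass the test. Trim25 came closest, with a difference of 0.85 (95% confidence interval 0.25 to 1.46, limma adjusted p = 0.072), and was called in 7 of 22 alternatives. The differences were 0.47 (-0.06 to 1.00, adjusted p = 0.244) for Trim56 and 0.46 (-0.05 to 0.97, adjusted p = 0.232) for Trim26. Trim21 had a difference of 0.78 (-0.03 to 1.60, adjusted p = 0.206). For Trim14 the estimate was -0.20 (adjusted p = 0.858), with an interval from -1.37 to 0.97, which includes differences of either sign.

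The sources were also compared within each genotype; these comparisons use the same libraries as those above and are not independent of them. In WT cells 6 members were lower in fetal liver than in bone marrow: Trim30d (log2 difference -1.27 ± 0.24 SE, limma adjusted p = 0.00323), Trim12a (-1.22 ± 0.18, adjusted p = 0.000546), Trim12c (-1.03 ± 0.24, adjusted p = 0.0105), Trim34a (-0.98 ± 0.19, adjusted p = 0.00352), Trim30a (-0.91 ± 0.19, adjusted p = 0.00569) and Trim56 (-0.68 ± 0.17, adjusted p = 0.0204). Of all genes tested, 7.77% were lower and 11.1% differed in either direction, counted as for the members by a limma adjusted p under 0.05. The call of Trim56 was lost with quantile normalization (-0.53, adjusted p = 0.0703), in a fit of only the libraries compared (-0.68, adjusted p = 0.0502), and when WT bone marrow replicate 2 (adjusted p = 0.101), WT fetal liver replicate 2 (0.0809) or WT fetal liver replicate 3 (0.107) was left out. That of Trim12c was lost with no filter (-1.03, adjusted p = 0.0535) and when WT bone marrow replicate 2 was left out (-0.91, adjusted p = 0.062). Trim26 (-0.30, adjusted p = 0.282), Trim21 (-0.29, adjusted p = 0.536), Trim25 (-0.22, adjusted p = 0.517) and Trim14 (-0.22, adjusted p = 0.771) did not pass the test.

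In ETV6-RUNX1 cells 5 members were higher in fetal liver than in bone marrow, against 10.4% of all genes tested (28.6% differed in either direction). They were Trim30d (1.38 ± 0.24 SE, limma adjusted p = 0.000738), Trim30a (1.02 ± 0.19, adjusted p = 0.00113), Trim34a (0.98 ± 0.19, adjusted p = 0.00163), Trim12a (0.66 ± 0.18, adjusted p = 0.0156) and Trim25 (0.63 ± 0.20, adjusted p = 0.0295). The count fell to 3 when replicate 1 of ETV6-RUNX1 bone marrow, or replicate 1 or replicate 3 of ETV6-RUNX1 fetal liver, was left out, and the calls lost were those of Trim12a (adjusted p = 0.0811, 0.0554 and 0.0671) and Trim25 (0.108, 0.118 and 0.0857). Trim25 was also lost without ETV6-RUNX1 bone marrow replicate 3 (0.0794), with no filter (0.0769) and with the pseudogene share as a covariate, where its difference was 0.30 (adjusted p = 0.449). Trim30d, Trim30a and Trim34a were thus lower in fetal liver among WT cells and higher in fetal liver among ETV6-RUNX1 cells, called in every alternative of both comparisons. Trim12a had the same pattern, with the losses of its ETV6-RUNX1 call just given. Trim21 (0.49, adjusted p = 0.186), Trim12c (0.44, adjusted p = 0.181), Trim26 (0.16, adjusted p = 0.516), Trim56 (-0.21, adjusted p = 0.388) and Trim14 (-0.41, adjusted p = 0.456) did not pass the test. Without ETV6-RUNX1 bone marrow replicate 3, however, Trim14 was called lower in fetal liver (-0.98, limma adjusted p = 0.0218). Without replicate 2 of that group, Trim21 was called higher there (0.81, limma adjusted p = 0.0259).

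**Figure D3:**
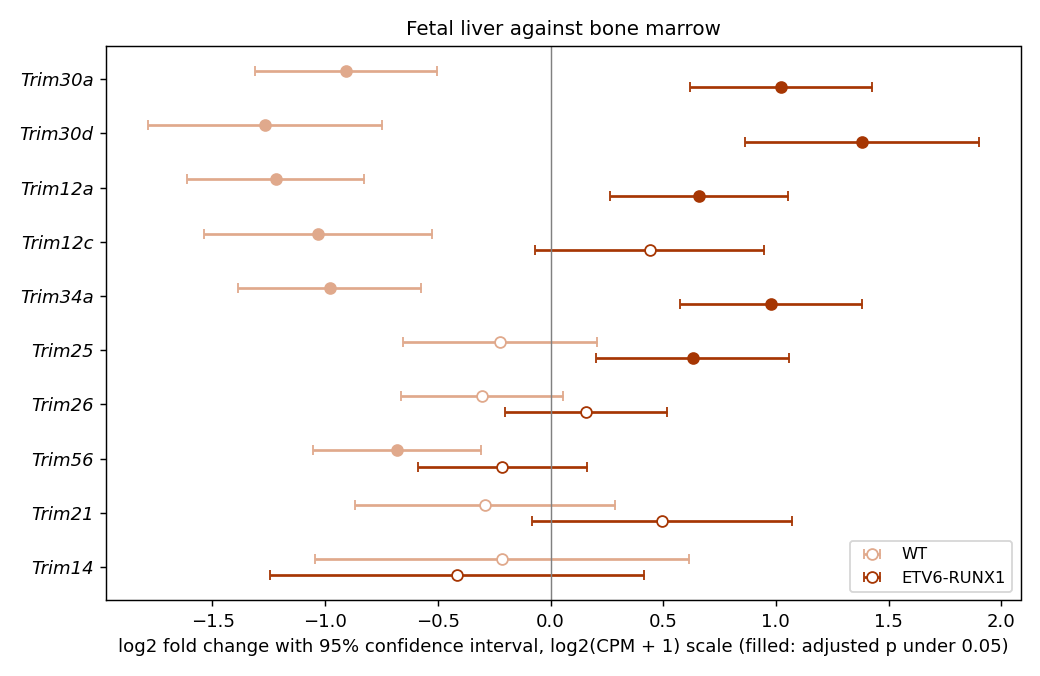
Log2 difference (log2(CPM + 1) scale) of fetal liver minus bone marrow for the 10 members, in WT and in ETV6-RUNX1 cells. Points are limma estimates and bars are their 95% confidence intervals. Every WT estimate lies below 0, from -1.27 to -0.22, and 8 of the 10 ETV6-RUNX1 estimates lie above it.

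The makeup of the group changed with genotype. Trim34a, Trim12a, Trim12c, Trim30a and Trim30d together held 54.97% of the summed CPM of the 10 members in WT fetal liver and 84.0% in ETV6-RUNX1 fetal liver. In bone marrow they held 66.0% in WT and 76.2% in ETV6-RUNX1. Trim30a alone went from 27.2% to 42.7% in fetal liver and from 29.5% to 36.4% in bone marrow. Over the 12 libraries, Pearson's r on log2(CPM + 1) was 0.962 to 0.995 for the 10 pairs among these 5 genes and 0.684 to 0.995 for all 45 pairs. The 9 pairs with Trim14 had the range 0.684 to 0.826. These values describe the pattern over 4 groups that the libraries share.

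These 5 genes lie on chromosome 7 within 263 kb, from 104244457 to 104507849 on GRCm38, a window set after their values were known. In order along the chromosome they are Trim34a (104244457 to 104262234), Trim12a (104299894 to 104315466), Trim12c (104338754 to 104353362), Trim30a (104409025 to 104465193) and Trim30d (104470014 to 104507849). Trim34a lies on the plus strand and the other 4 on the minus strand. Of the 14 genes of the table within the window, 10 were tested, 9 of them TRIM genes. All 10 rose in fetal liver and 9 rose in bone marrow, the exception being Trim34b (log2 fold change 0.51, limma adjusted p = 0.0859). The interaction was called and positive for 9 of them, again without Trim34b (0.90, limma adjusted p = 0.0601).

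Within 500 kb on either side of the window, 9 of 69 genes were tested. Of these, 5 rose in fetal liver, namely the beta-globin genes Hbb-bt, Hbb-bs and Hbb-y, Trim6 and the pseudogene Gm4887. In bone marrow the smallest limma adjusted p of the 9 was 0.0585, for Hbb-bt. Trim6, which adjoins Trim34a, was 16.5 ± 3.44 CPM in WT and 34.7 ± 4.40 CPM in ETV6-RUNX1 fetal liver (SD, n = 3; log2 fold change 1.03, limma adjusted p = 0.000764), and in bone marrow its change was 0.23 (adjusted p = 0.423). Trim21 (102557921 to 102565486, minus strand) is also on chromosome 7 but outside this window. The remaining members are Trim14 on chromosome 4 (46493781 to 46536141, minus strand), Trim56 on chromosome 5 (137105644 to 137116209, minus strand), Trim25 on chromosome 11 (88999376 to 89020293, plus strand) and Trim26 on chromosome 17 (36837134 to 36859398, plus strand).

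**Figure D4:**
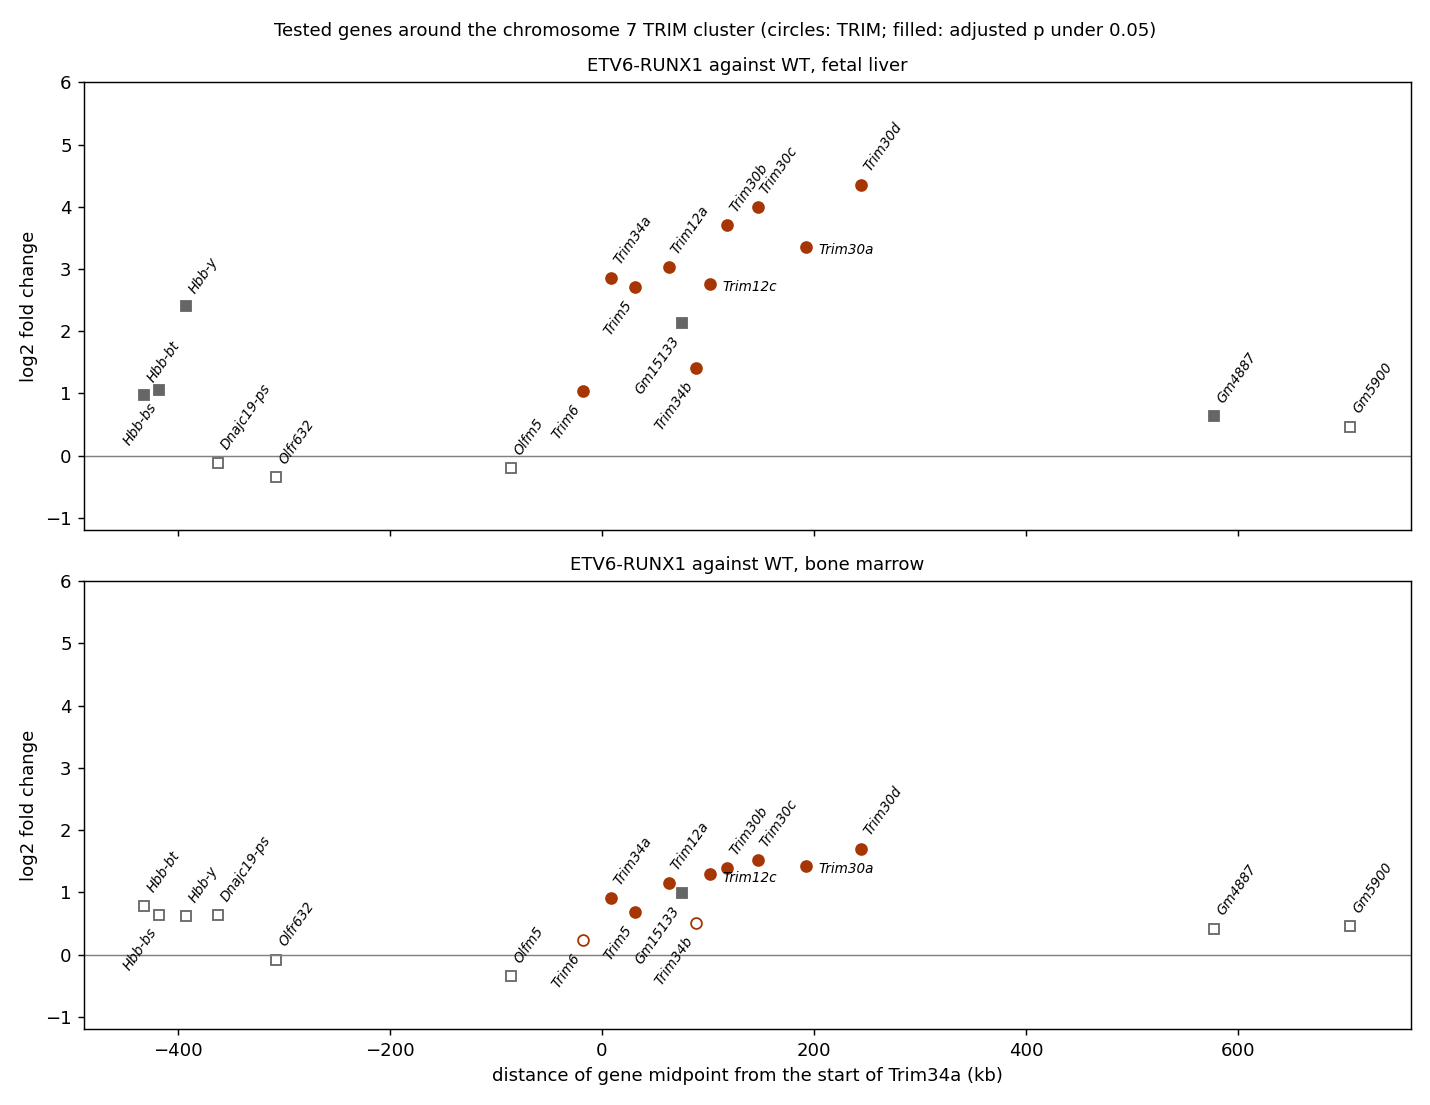
Log2 fold change of ETV6-RUNX1 against WT for each tested gene in and around the chromosome 7 TRIM cluster, against the distance of the gene's midpoint from the start of Trim34a in kb. The upper panel is fetal liver and the lower bone marrow, circles are TRIM genes, squares other genes, and filled symbols had a limma adjusted p under 0.05. Trim30d, at 4.35 in fetal liver and 1.70 in bone marrow, lies highest in both panels.

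The rest of the TRIM family was examined as a list of 55 genes, of which 37 were tested. In fetal liver 14 rose and 3 fell, with a median change of 0.35, and in bone marrow 8 rose and 1 fell, with a median of 0.34. The interaction was called and positive for 4 of them, and 18 of the 37 estimates were positive (median difference -0.03). As a measure for this list and those that follow, 24.8% of all genes tested rose in fetal liver and 14.4% in bone marrow. With falls included, 43.1% and 19.4% of all genes changed, and their medians were 0.08 and 0.13. The interaction was called and positive for 5.56% of all genes, with a median of -0.05 over all. The leading genes of the TRIM list lie in the same cluster. Trim30b was 5.86 ± 0.408 CPM in WT and 88.5 ± 11.3 CPM in ETV6-RUNX1 fetal liver (SD, n = 3; log2 fold change 3.70, limma adjusted p = 7.4e-09), and rose by 1.39 in bone marrow (adjusted p = 0.000433). Trim30c rose by 3.99 and 1.51, and Trim5, the namesake of the capsid-binding group, by 2.71 and 0.68. Trim8, a regulator of cytokine signalling, rose by 1.08 and 0.69. The genes that fell in fetal liver were Trim58 (-1.15, limma adjusted p = 0.00584), a ligase of the erythroid lineage, Trim28 (-0.47, adjusted p = 0.00884), a corepressor that silences retroelements, and Trim9 (-0.69, adjusted p = 0.0427). Trim58 also fell in bone marrow (-1.18, adjusted p = 0.0134).

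The sensing pathway that TRIM ligases act on moved in part. Of 26 genes for sensors, adaptors, kinases and factors, all tested, 15 rose and 1, the mitochondrial protein gene Nlrx1, fell in fetal liver, with a median of 0.52. In bone marrow 6 rose, with a median of 0.30. The interaction was called and positive for 4 genes, and 22 of the 26 estimates were positive. Ddx58, which encodes RIG-I, rose by 4.18 in fetal liver and 1.79 in bone marrow (limma adjusted p = 4.44e-08 and 0.000827), Dhx58 by 4.45 and 1.81, the RNA sensor gene Ifih1 by 3.55 and 1.497, and the transcription factor gene Irf7 by 6.18 and 3.13. The partner of RIG-I in this pathway, Mavs, did not pass the test in fetal liver (0.44, adjusted p = 0.0565), nor did Irf3 (0.23, adjusted p = 0.19), the factor Trim26 acts on. Zc3hav1, which encodes the antiviral partner of Trim25, rose by 1.51 in fetal liver (adjusted p = 0.000895).

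Enzymes of ubiquitin and of its relative ISG15 differed in how many moved. The ISG15 list held conjugation genes and Usp18, the gene of a protease that removes ISG15. All 5 genes rose in both sources, with medians of 3.54 in fetal liver and 1.504 in bone marrow. For all 5 the interaction was called and positive. Uba7, the activating enzyme of ISG15, rose by 2.96 and 0.87, Ube2l6, its conjugating enzyme, by 3.34 and 1.17, the ligase gene Herc6 by 3.54 and 1.504, and Isg15 itself by 5.86 and 2.71. A list of 14 genes held those of ubiquitin activating enzymes, conjugating enzymes and their variants, and Vcp, which is none of these. Of the 14, 2 fell in fetal liver, where the median was 0.14, while 1 rose and 1 fell in bone marrow. Ube2n, which builds lysine-63 chains with Ube2v2, fell in both sources (-0.69, limma adjusted p = 0.000456, and -0.44, adjusted p = 0.0216), and Ube2v2 fell in fetal liver (-0.55, adjusted p = 0.0117). Ube2d2a, which encodes a conjugating enzyme of many RING ligases, rose in bone marrow (0.83, adjusted p = 0.015).

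Of 18 genes of interferon receptor signalling, 14 were tested. In fetal liver 11 rose (median 1.15) and in bone marrow 9 rose (median 0.94). The interaction was called and positive for 6, and 10 of the 14 estimates were positive. Stat2 rose by 4.10 in fetal liver and 2.14 in bone marrow, and Irf9 by 2.31 and 1.04. Ifnb1, the interferon beta gene, was 0.0865, 0 and 0 CPM in WT fetal liver and 2.5001, 2.53 and 4.89 CPM in ETV6-RUNX1 fetal liver. In bone marrow it was 0.0762, 0 and 0 CPM in WT and 0.108, 0.309 and 0.124 CPM in ETV6-RUNX1, and the interaction passed the test (limma adjusted p = 0.00164). The WT libraries lay at or near the floor, so no fold is given.

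Markers of other cell types were measured beside these results. The summed CPM of 10 macrophage and monocyte markers was 254 to 316 in WT and 748 to 946 in ETV6-RUNX1 fetal liver, and 262 to 350 and 349 to 519 in bone marrow. Of these 10 genes, 3 reached 1 CPM in every library, and C1qa was under the floor in all of them. Lyz2 held most of the fetal liver sums (means of 233 CPM in WT and 686 CPM in ETV6-RUNX1). Means there were also higher with the fusion for Cd68 (43.5 and 104.6 CPM), Itgam (4.33 and 18.4), Csf1r (0.824 and 10.02) and Cd14 (0.4404 and 3.64). Adgre1 had means of 0.03196 and 1.24 CPM there and did not exceed 1.56 CPM in any library. Mrc1 was lower with the fusion in fetal liver (1.47 and 1.25 CPM). For 8 plasmacytoid dendritic cell markers the sums were 206 to 221 and 648 to 1052 in fetal liver, and 248 to 329 and 420 to 600 in bone marrow, with Klk1 under the floor and Siglech at most 0.249 CPM. Most of that sum was Bst2, itself known as an interferon-induced gene, and Tcf4. Bst2 had means of 90.8 CPM in WT and 616 CPM in ETV6-RUNX1 fetal liver, and Tcf4 had 119 and 200 CPM. Pacsin1, of the same list, had means of 1.13 and 24.1 CPM in fetal liver and 0.572 and 3.72 CPM in bone marrow. Means were lower with the fusion for Ccr9 (0.211 and 0.136 CPM) and Siglech (0.083 and 0 CPM) in bone marrow. In fetal liver the mean of Cox6a2 was lower, with both means under the floor. The 6 megakaryocyte markers summed to 3089 to 4575 and 7221 to 7929 in fetal liver, and to 1374 to 1835 and 475 to 2108 in bone marrow, and all 6 reached 1 CPM in every library. Pf4 held most of the fetal liver sums (means of 2472 and 4816 CPM), while Gp9 had means of 387 in WT and 213 CPM in ETV6-RUNX1. The 6 erythroid markers summed to 729 to 1010 and 1412 to 2188 in fetal liver and to 234 to 518 and 420 to 633 in bone marrow, 3 of them at 1 CPM in every library. Hbb-bt held most of these sums (815 and 1611 CPM in fetal liver), and Klf1, an erythroid transcription factor gene, had means of 0.654 and 0.175 CPM there. The HSC list summed to 2019 to 2491 and 3449 to 4110 in fetal liver and to 2044 to 3231 and 2802 to 3494 in bone marrow. These sums moved with the members in fetal liver, and their part in the results was not tested.

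The other lists were of 6 genes each, and some of them also differed between the genotypes. Stroma and endothelium markers summed to 66.5 to 89.6 CPM in WT and 139 to 173 in ETV6-RUNX1 fetal liver, mostly Pecam1 (means of 69.7 and 141 CPM), and to 54.4 to 83.9 and 80.5 to 88.6 in bone marrow. Neutrophil markers were lower with the fusion, at 39.4 to 137 and 12.6 to 20.5 in fetal liver and 4.41 to 102 and 1.76 to 3.16 in bone marrow. Hepatoblast markers (Ttr under the floor) summed to 106 to 142 in WT and 159 to 184 in ETV6-RUNX1 bone marrow, mostly Krt18, and overlapped in fetal liver. B cell markers were 50.1 to 52.5 and 55.4 to 81.7 in fetal liver, and mast cell markers (Tpsb2 and Mcpt4 under the floor) 4.95 to 9.58 and 3.24 to 4.09, and both overlapped in bone marrow. The sums of dendritic cell markers (3.81 to 36.0 over all libraries) and of T and NK cell markers (0.805 to 4.30, Cd3e and Ncr1 under the floor) overlapped between the genotypes in both sources. Single dendritic genes moved both ways in fetal liver. Means in WT and ETV6-RUNX1 were 22.8 and 5.99 CPM for Flt3 and 0.177 and 0.104 CPM for Cd209a, which were lower with the fusion. Higher with it were Clec9a (1.30 and 8.15 CPM), Zbtb46 (2.63 and 6.97), Xcr1 (0.199 and 1.13) and Itgax (0.0764 and 1.01). The part of these lists in the results was not tested. The share of mitochondrial reads was 0.921% to 1.84%, lowest in ETV6-RUNX1 fetal liver at 0.921% to 1.10%, and its part was not tested either.

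For 9 members the gene outside the group with the most similar levels was found by Pearson's r on log2(CPM + 1) over the 12 libraries, given as a description. For the chromosome 7 members they were Parp9 for Trim30d (0.998), Ifi44 for Trim12a (0.997), Ddx60 for Trim30a (0.995), Rtp4 for Trim12c (0.994) and Dhx58 for Trim34a (0.993). Ifi44 was 3.999 ± 0.886 CPM in WT and 755 ± 225 CPM in ETV6-RUNX1 fetal liver, and in marrow 36.8 ± 14.501 and 251 ± 114 CPM (SD, n = 3), the same order of groups as Trim12a. For the others they were Znfx1 for Trim26 (0.980), Ccl22 for Trim21 (0.980), Iqsec2 for Trim56 (0.978) and Triobp for Trim14 (0.968).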

How the data were processed

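RNA was extracted with a Norgen single-cell kit and the libraries were built with the SMARTer stranded pico kit for total RNA, per the labels' protocols. Per the submitters' processing notes, the tools were bcl2fastq, STAR 2.5.1a, Subread featureCounts 1.4.6-p5, Salmon 0.8.2, edgeR and limma, with GRCm38, and their roles and the strand setting are not given in the sources used here. The authors deposited CPM per gene, reads scaled to the library total, in 1 table. Every value was a whole multiple of 1 read (100%, tolerance 0.01 reads), which gave the totals. Repeats of a gene ID (276 of 40757 entries) were dropped, and 11203 genes had no reads. Floors cover counting error only.

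The log2(CPM + 1) values were tested with limma 3.58.1 in R 4.3.3 (trend, two-sided, 4 group coefficients, 8 residual degrees of freedom), over the 14271 genes that reached 1 CPM in 3 or more libraries, a filter all 10 members passed. P-values were adjusted by the Benjamini-Hochberg method over all of them within each of the 5 comparisons, at a threshold of 0.05. Exon lengths, overlaps and coordinates (1-based) came from GENCODE M21 on GRCm38, in which 99.65% of gene IDs were found. The members and lists were chosen with earlier results of these data known. Named in each of the 5 pathway lists were at most 3 called genes per comparison, by smallest adjusted p, with a mean of at least 1 CPM; Isg15 and Irf7 are among these, and other list genes, Trim6, Trim34b and Nans were named after their values were seen. A gene of the interferon receptor list and the gene most similar to Trim25 are not reported here. The alternatives were a pseudocount of 0.1, no filter, a mean of at least 5 CPM, other scalings, the replicate number as a block, edgeR 4.0.16 (quasi-likelihood, TMM) and DESeq2 1.42.0 on the recovered reads, array weights, fits of only the libraries compared, the processed pseudogene share as a covariate (added after the data were seen) and leaving out each library. The limma test was also run on simulated data with far fewer changed genes than were called here, and no result rests on that run.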

Additional observations from a re-analysis of the deposited data

Results flagged for a closer look

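The effect of ETV6-RUNX1 in fetal liver differed from that in bone marrow, by limma's test of the interaction, for 5 members and for 11 genes that the naming rule took from the pathway lists. The differences (fetal liver minus bone marrow, log2) were 2.65 for Trim30d, 1.96 for Trim34a, 1.93 for Trim30a, 1.88 for Trim12a and 1.47 for Trim12c. Among other TRIM genes they were 2.48 for Trim30c (adjusted p = 0.000725), 2.31 for Trim30b (0.000142) and 2.03 for Trim5 (0.000291). Among sensor genes they were 2.64 for Dhx58 (0.000763), 2.40 for Ddx58 (0.00157) and 2.05 for Ifih1 (0.0025). In ISG15 conjugation they were 2.17 for Ube2l6 (0.00142), 2.09 for Uba7 (0.000104) and 2.04 for Herc6 (0.00212). In interferon receptor signalling they were 1.96 for Stat2 (0.00315) and 1.82 for Ifnb1 (0.00164). The WT libraries of Ifnb1 lay at or near the floor, so this is a difference on the log2(CPM + 1) scale whose size depends on the pseudocount, and not a fold.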

How the results depend on the processing

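Over the alternatives, 228 of 229 member values in fetal liver and 208 of 229 in bone marrow kept their direction and side of the threshold, and none changed sign. For the interaction it was 206 of 219, and for the sources 221 of 229 in WT and 217 of 229 in ETV6-RUNX1. Signs changed for the Trim14 interaction, to 0.09 or 0.08 when replicate 1 or 2 of ETV6-RUNX1 bone marrow was left out and 0.04 when replicate 2 of ETV6-RUNX1 fetal liver was (range over all libraries left out in turn -0.77 to 0.0945), and for Trim26 between the sources in ETV6-RUNX1 cells with the pseudogene covariate (-0.000913). None of these was called, and the cause was not tested.

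Leaving out each library in turn, the number of members called was 10 in fetal liver in every case, 6 to 9 in bone marrow, 5 to 6 for the interaction, 4 to 6 for the sources in WT and 3 to 6 in ETV6-RUNX1. The last range mixes directions: without ETV6-RUNX1 bone marrow replicate 3, 4 members were higher in fetal liver and 1, Trim14, was lower. With the replicate number as a block the counts were 10, 9, 5, 6 and 5, as without it. The deviations of same-numbered libraries of the genotypes from their group means had r of 0.16, -0.085 and 0.221 in fetal liver. In bone marrow r was -0.307, 0.118 and -0.404. With 3 libraries a group, such values cannot show whether the numbers mark a pairing. Under a mean of at least 5 CPM, Trim21 was not tested.

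Over all genes, quantile normalization moved the fetal liver median from 0.08 to -0.10 and the share that rose from 3544 of 6151 to 2717 of 6463. In bone marrow median-of-ratios scaling moved it from 2059 of 2763 to 1479 of 2792. Bone marrow calls fell from 2763 to 1601 with only the libraries compared. Interaction calls went from 1311 to 3637 with array weights, 767 with no filter and 543 with the pseudogene covariate, and calls between the sources in WT from 1591 to 4401 with array weights. The table holds 3 libraries a group, and depth (60 reads or more per member and library) limits Trim21 and Trim14 most.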

Other observations

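A pair of TRIM genes outside the group of 10 differed between the sources in both genotypes, in the direction of lower levels in fetal liver, and were named after their values were seen. Trim16 was 7.38 ± 1.48 CPM in fetal liver and 14.1 ± 2.10 CPM in bone marrow of WT (SD, n = 3; log2 difference -0.85, limma adjusted p = 0.0144), and 9.39 ± 1.70 against 21.1 ± 4.30 CPM in ETV6-RUNX1 cells (-1.08, adjusted p = 0.00145). Mid2 was 0.0865, 0.502 and 0.124 CPM in WT fetal liver and 1.16, 1.73 and 1.74 CPM in WT bone marrow (-1.05, limma adjusted p = 0.00932), and its difference in ETV6-RUNX1 cells was -1.21 (adjusted p = 0.00168). Neither passed the test between genotypes in fetal liver (adjusted p = 0.241 for Trim16 and 0.645 for Mid2).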
